A study of Mus musculus with 2 samples.

Results

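The regions described here are long intergenic noncoding RNA (lincRNA) regions whose transcripts were detected in mouse skeletal muscle. An array of 60-base probes carries, beside its gene probes, 16181 probes that are named only by a genomic interval of the mm9 build and a strand, such as chr10:69679644-69682458 forward, and these probes fall into 4607 regions. A probe was taken as measured when the scanner software flagged it as well above background on both arrays of the series. This rule, which uses the measured signal, selected 3154 probes (19.5% of 16181) in 1794 regions (38.9% of 4607), so the levels below describe what was selected. Merging overlapping regions of the same strand left 1500 separate loci. Among probes for named genes, 15823 of 31397 (50.4%) met the same condition.

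The series holds 2 arrays. Total RNA came from tibialis anterior muscle, a fast muscle of the lower hind limb, of adult male C57BL/6 mice. The first array is the control. The second is from N2ICD-mTG mice, which carry a transgene for the activated intracellular domain of the receptor Notch2 (N2ICD), the fragment that acts in the nucleus. The labels do not state the promoter that drives the transgene, or how many mice gave each RNA. With 1 array per group there is no replicate and no test, and genotype, animal, dissection and array cannot be told apart. Each difference below is therefore a difference between these arrays. In bulk muscle RNA, fewer cells of a type and less RNA per cell cannot be told apart either.

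LincRNAs are transcripts of RNA polymerase II from between protein-coding genes that carry no long reading frame. Some act as nuclear scaffolds, such as Neat1, the core of paraspeckles, and Malat1, a nuclear RNA of splicing speckles. Others turned out to be extensions of neighbouring messenger RNAs, antisense transcripts or carriers of small reading frames. In muscle the best known of the last kind is myoregulin (Mrln), whose RNA was first listed as noncoding and encodes a micropeptide that inhibits SERCA, the calcium pump of the sarcoplasmic reticulum.

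The sequence that the highest-ranking regions turn on is that of Mrln. On the forward strand, 6 measured probes of regions chr10:69679644-69682458 and chr10:69669025-69686275 overlap or abut, and joined they give a run of 240 bases at chr10:69682222-69682461. The longest ATG-to-stop frame in that run is the one shown, which spans 46 codons before its stop at chr10:69682244-69682384, with the start and stop codons in capitals. The gene probe that the array lists as 2310015B20Rik, the older name of Mrln, lies within the same stretch, and the RefSeq table of names (GRCm38.p6) lists Mrln as protein-coding.
Mrln frame: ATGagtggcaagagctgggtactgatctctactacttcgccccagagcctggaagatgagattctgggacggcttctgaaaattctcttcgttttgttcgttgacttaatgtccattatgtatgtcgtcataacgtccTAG

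The 5 probes shown next are from the locus with the most negative difference, N2ICD minus control, among loci with 2 or more measured probes. All lie on the reverse strand of chromosome 17 between Sik1, a salt-inducible kinase gene, and Hsf2bp, a meiosis gene. Capitals mark the 19 bases covered by 2 probes that belong to different regions. The other probes share no position.
chr17:32044827-32044886: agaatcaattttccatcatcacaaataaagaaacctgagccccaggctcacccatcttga
chr17:32044887-32044946: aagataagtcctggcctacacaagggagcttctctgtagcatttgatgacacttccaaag
chr17:32044984-32045043: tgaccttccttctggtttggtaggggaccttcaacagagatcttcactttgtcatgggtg
chr17:32045045-32045104: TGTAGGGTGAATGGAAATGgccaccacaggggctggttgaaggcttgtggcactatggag
chr17:32045086-32045145: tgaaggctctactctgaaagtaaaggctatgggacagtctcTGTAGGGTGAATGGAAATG

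Region chr8:19792940-19798868 forward is shown because all its probes were higher on the N2ICD array and no named gene probe lies within 50 kb. Region chr1:192484781-192485014 reverse is shown because its outer probes went opposite ways, and a probe of region chr14:73729977-73751877 reverse because it had the largest signal that was lost on the N2ICD array. Probes of region chr19:5834117-5835940 reverse stand for the Neat1 side of the nuclear RNAs. Capitals mark CG pairs.
chr8:19793528-19793587: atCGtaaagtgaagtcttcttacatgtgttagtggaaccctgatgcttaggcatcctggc
chr8:19798422-19798481: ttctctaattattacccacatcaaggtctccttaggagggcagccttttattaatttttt
chr8:19798494-19798553: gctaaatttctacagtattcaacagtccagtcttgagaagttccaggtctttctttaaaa
chr1:192484806-192484865: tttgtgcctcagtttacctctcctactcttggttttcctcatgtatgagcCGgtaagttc
chr1:192484955-192485014: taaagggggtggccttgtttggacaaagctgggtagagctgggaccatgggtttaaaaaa
chr14:73734861-73734920: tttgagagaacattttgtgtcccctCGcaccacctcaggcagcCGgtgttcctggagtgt
chr19:5834543-5834602: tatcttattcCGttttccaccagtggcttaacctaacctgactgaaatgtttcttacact
chr19:5834603-5834662: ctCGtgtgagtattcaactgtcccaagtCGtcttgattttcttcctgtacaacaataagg
chr19:5834857-5834916: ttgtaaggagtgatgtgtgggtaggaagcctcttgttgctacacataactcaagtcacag

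A last set is shown for its base composition and its strands. The first probes are the member with the lowest difference of all and another of the 6 lowest, both in CG-rich sequence, with the CG pairs in capitals. The remaining probes form facing pairs, in which capitals mark the bases whose complement is in the partner, 47 bases in the first pair and 31 in the second.
chr6:145695157-145695216 forward: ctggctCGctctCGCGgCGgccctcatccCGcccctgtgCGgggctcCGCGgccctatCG
chr7:16647383-16647442 forward: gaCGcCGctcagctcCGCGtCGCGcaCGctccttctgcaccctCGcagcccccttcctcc
chr12:73862339-73862398 forward: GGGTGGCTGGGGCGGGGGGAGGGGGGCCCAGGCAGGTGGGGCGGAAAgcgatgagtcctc
chr12:73862326-73862385 reverse: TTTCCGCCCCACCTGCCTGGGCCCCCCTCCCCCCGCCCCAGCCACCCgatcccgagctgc
chrX:18814996-18815055 forward: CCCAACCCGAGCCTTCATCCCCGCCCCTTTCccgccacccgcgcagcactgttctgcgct
chrX:18814967-18815026 reverse: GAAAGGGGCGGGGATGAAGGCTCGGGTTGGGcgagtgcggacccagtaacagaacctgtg

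All 8 markers of skeletal muscle fibres were measured, at processed signals from 116644 to 508679 on the control array, and none of the 3 liver markers was. Markers of other cells in a muscle were measured too: 4 of 4 for fibroblasts, 3 of 3 each for smooth muscle, endothelium and macrophages, 2 of 2 each for erythroid cells and adipocytes, 2 of 3 for neurons and 1 of 3 for cardiac muscle. Which cells the lincRNA signals came from was not tested.

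Signals of the measured lincRNA probes were mostly low. The processed signal, a background-subtracted fluorescence in arbitrary units, had a median of 104 in the control and 110 in N2ICD, with quartiles of 55.7 and 301 and of 58.5 and 320. The median over measured gene probes was 362 and 416. The range of the lincRNA probes ran from 26.9 to 147554 in the control and from 27.6 to 182007 in N2ICD, while the dimmest spot of any kind flagged well above background had a signal of 25.4 and 27.1. The members thus begin just above the detection limit. Just inside the rule, a probe of chr17:32035750-32056000 forward had signals of 27.7 and 27.6, and a probe of chr1:133839368-133839762 forward had 27.4 and 28.8. Just outside it, the brightest probe that missed the flag on 1 array was that of chr14:73729977-73751877 reverse, at 1987 in the control and 28.1 in N2ICD. No spot was saturated. Brightness depends on the probe as well as on the RNA, so each difference below is that of a probe with itself across the arrays, and the medians and the order of brightness only describe the signals.

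The brightest regions with at least 2 measured probes differed by less than 2-fold between the arrays. In chr14:78924115-78938125 forward, near Akap11, 2 of 7 probes were measured. The brighter read 147554 and 182007, and the other 27.4 and 36.6, so the high mean of this region is that of 1 probe. Region chr17:17481706-17482457 reverse had mean signals of 58210 and 62578 over 3 of 3 probes, and its mean log2 difference was -0.06 with probes between -0.09 and -0.03. Region chr6:116092274-116144199 forward had means of 42886 and 60042 over 3 of 5 probes, and its probes differed by 0.21 on average. Region chr6:83368261-83407280 forward, whose measured probes lie in an interval with the gene B230319C09Rik, had means of 39606 and 48428.

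**Figure D1:**
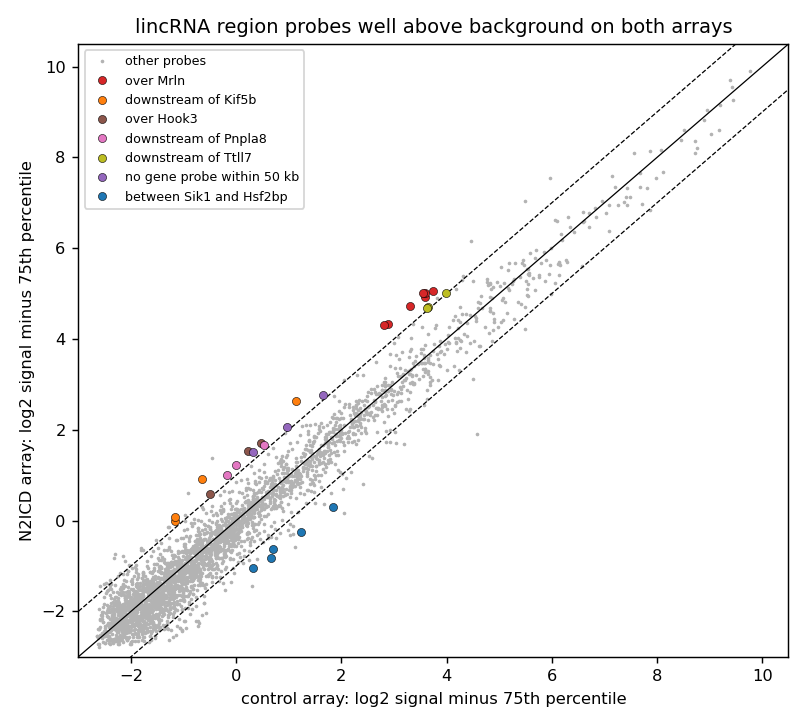
Log2 processed signal minus the array's 75th percentile, control on the x axis and N2ICD on the y axis, for 3154 measured lincRNA probes. The solid line marks equal values and the dashed lines a 2-fold difference. Coloured probes belong to regions in which every measured probe passed 2-fold the same way, named by the nearest gene probe, and the Mrln probes lie farthest above the line among the bright ones of these regions.

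Differences were computed as log2 signal minus the array's 75th percentile, N2ICD minus control. Over the members the median difference was -0.09 and the SD 0.44. The same over named gene probes was 0.01 and 0.39. Of the 3154 members, 1247 lay above 0 and 1907 below. At least 2-fold higher in N2ICD were 52 probes, 1.65% of members, where 1.54% of gene probes were. At least 2-fold lower were 78 probes, 2.47% of members, where 0.923% of gene probes were. On this scale the pooled share of higher probes was thus near that of genes and the share of lower probes above it. Split by signal, averaged over the arrays, the higher share was 4.58% of members and 1.03% of gene probes at 1000 or more. At 200 to 1000 it was 1.68% and 1.29%, and under 50 it was 0.83% and 0.35%. Members were below gene probes at 50 to 100 (1.21% and 2.89%) and at 100 to 200 (1.30% and 2.44%). The lower share was above that of gene probes in each band. The split of 52 higher and 78 lower depended on the scale. It was 63 and 62 when arrays were centred on the median, and 24 and 19 with another background correction (normexp). On a scale set by spike-in controls it was 261 and 8, and the median of all measured probes moved to 0.52. Shares of gene probes were not computed in these settings. Whether the share of lower members stays above that of genes there was not tested. Among members 4-fold or more apart there was a single probe, the CG-rich one of chr6:145647711-145756861 forward, at 4013 in the control and 712 in N2ICD, which differ on the log2 scale by -2.67.

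Probes past 2-fold in the upward direction came in groups, and those in the downward direction mostly alone. The 52 higher probes fell into 28 loci and the 78 lower probes into 71. Of the higher probes, 4 were the only measured probe of their region. Of the lower probes, 35 were. Where a region had another measured probe, the partner of a higher probe was itself past 2-fold the same way in 66 of 109 pairs (60.6%) and on the same side of 0 in 101. The partner of a lower probe was past 2-fold the same way in 10 of 87 pairs (11.5%), on the same side in 57 and on the other side in 30. Since probes of a region share a transcript or an interval, these pairs are a description of agreement and not independent cases. Each such probe was paired with every other measured probe of its region, so regions with many probes weigh more. Most of the 66 pairs come from the few regions in which all measured probes were higher, such as those of Mrln.

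In 9 of the 714 regions with 2 or more measured probes, every measured probe passed 2-fold in the same direction, 7 upward and 2 downward. The highest of the upward ones were those of Mrln. In chr10:69669025-69686275 forward all 5 probes were measured, with control signals of 1180, 2046, 1993, 2263 and 1247 and N2ICD signals of 3769, 5795, 6191, 6383 and 3804. Each probe was higher on the N2ICD array, by 1.32 to 1.503 on the log2 scale, with a mean of 1.41 or 2.66-fold. In chr10:69679644-69682458 forward, 2 of 3 probes were measured, with 2044 and 1673 in the control and 6184 and 5031 in N2ICD, a mean difference of 1.42. The Mrln gene probe, chosen by the array's makers for the messenger RNA, read 2012 and 5994, a difference of 1.40. It shares 25 or more bases with a probe of each region, so it is close to a repeat of those probes. The first probe of the wider interval, at chr10:69679775-69679834, lies before the reading frame and gave 1.503. The next named gene on that strand, Ccdc6, had probes that disagreed, at -0.79 and 0.20. Across 11 alternative scalings, background corrections and filters the mean of chr10:69669025-69686275 stayed between 1.35 and 1.93.

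The other regions with every measured probe at least 2-fold higher lay, with 1 exception, over or just past the 3' end of a gene probe on the same strand. Region chr8:27131895-27132834 reverse holds a probe of Hook3, an adaptor that links dynein to cargo. Its 3 probes had control signals of 198, 235 and 120 and N2ICD signals of 555, 622 and 287, a mean difference of 1.21, and the 2 Hook3 gene probes differed by 0.74 and 1.04. Region chr12:45418006-45418737 forward begins 3715 bases downstream of a probe of Pnpla8, a phospholipase gene. Its 3 probes read 149, 170 and 243 in the control and 381, 447 and 604 in N2ICD, a mean of 1.18, against 0.35 for the Pnpla8 probe. Region chr3:146645022-146646977 forward begins 2311 bases downstream of a probe of Ttll7, a tubulin polyglutamylase gene. Its 3 probes read 2123, 2684 and 2084 in the control and 4996, 6178 and 4898 in N2ICD, a mean of 1.05, against 0.57 for the measured Ttll7 probe. The exception, chr8:19792940-19798868 forward, read 211, 330 and 530 in the control and 546, 799 and 1302 in N2ICD, a mean of 1.14. Every probe of these regions was thus higher on the N2ICD array. Under another background correction (normexp) the means were 0.98 for the Hook3 region, 0.94 for the Pnpla8 region, 1.07 for the Ttll7 region and 0.996 for chr8:19792940-19798868.

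The regions between Sik1 and Hsf2bp were the only ones in which all of 2 or more measured probes were at least 2-fold lower. Of merged loci, that of chr15:102920547-102933472 and chr15:102932714-102935033 forward, with 1 measured probe each, at -1.04 and -1.69, was lower throughout as well. In chr17:32044823-32045974 reverse, the 3 probes had control signals of 275, 606 and 211 and N2ICD signals of 124, 236 and 91.7. In the wider chr17:32035750-32056000 reverse, both probes were measured, at 398 and 267 in the control and 159 and 108 in N2ICD. The mean differences were -1.41 and -1.49, and all 5 probes lay between -1.53 and -1.32. The Hsf2bp probe was not above background on either array. The Sik1 probe, 54436 bases from the wider region, went the other way, from 274 to 466, a difference of 0.59. On the spike-in scale the means of these regions were -0.89 and -0.97.

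Region chr18:6144775-6202105 reverse begins 410 bases downstream of a probe of Kif5b, the heavy chain of the motor protein kinesin-1. Its 4 measured probes had control signals of 107, 369, 75.4 and 75.2 and N2ICD signals of 357, 1175, 202 and 190. They were higher by 1.17 to 1.57, with a mean of 1.37, or 0.99 with normexp. The nearest Kif5b gene probe read 37.8 and 99.8, a difference of 1.23, while a second Kif5b probe was not above background on either array. A single measured probe of the overlapping chr18:6144775-6202232 reverse differed by 1.84, from 122 to 495, and was the largest upward difference among probes that stood alone in their region. That value was 1.38 with normexp and 0.58 with the dim probes of the region averaged in.

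**Figure D2:**
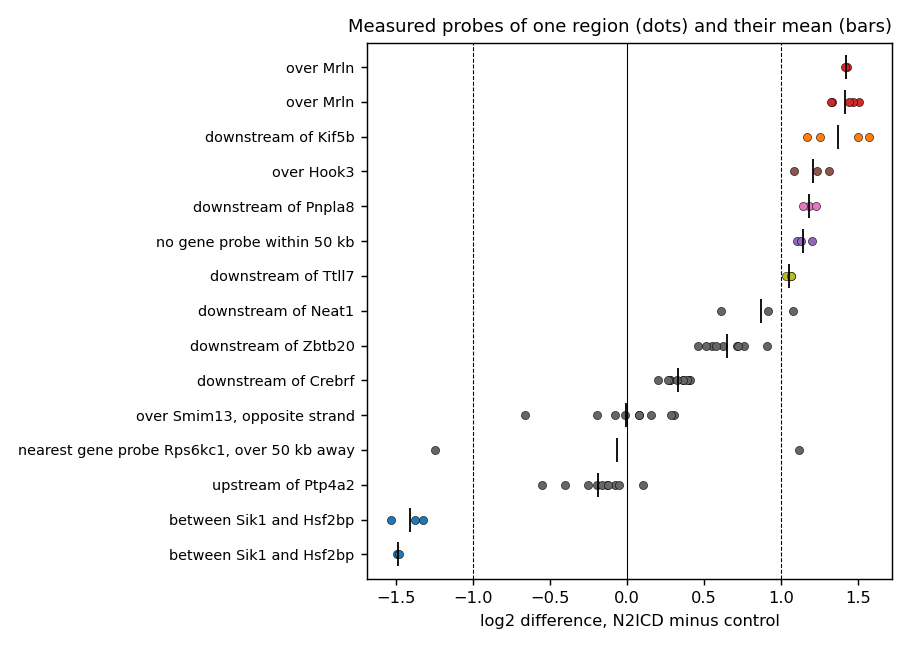
Log2 difference, N2ICD minus control, of each measured probe (dots) and the region mean (bars) in the regions where all measured probes passed 2-fold the same way, a Neat1 region, the region with opposite probes and the 4 regions with the most measured probes. Mrln and the locus between Sik1 and Hsf2bp have probes that lie close together, and the probes of the region nearest Rps6kc1 lie on opposite sides, at -1.25 and 1.11.

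Regions with many measured probes showed what agreement looks like at smaller differences. In chr16:43623581-43642715 forward, 4492 bases downstream of a probe of Zbtb20, a zinc-finger repressor gene, 9 of 10 probes were measured and all were higher on the N2ICD array, by 0.46 to 0.91, with a mean of 0.65. The Zbtb20 probe differed by 0.53. In chr17:26911397-26917047 forward, downstream of Crebrf, all 10 probes were measured and lay between 0.20 and 0.41, with a mean of 0.33. In chr4:129497990-129515290 forward, upstream of Ptp4a2, all 10 were measured, between -0.55 and 0.10. In chr13:41337973-41379821 reverse, opposite to Smim13, 9 of 10 were measured, between -0.66 and 0.30. Over the 714 regions with 2 or more measured probes, 427 (59.8%) had all probes on the same side of 0. The median span from the lowest to the highest probe was 0.37 and the span was over 1 in 54 regions.

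Probes on the strand of Neat1 and Malat1, near the array's gene probes for them, agreed in direction. Distances are to the gene probes, so these regions may lie within the Neat1 and Malat1 RNAs themselves, which was not tested. Region chr19:5834117-5835940 reverse, 6624 bases downstream of the Neat1 gene probe, had all 3 probes measured, at 3058, 2384 and 1395 in the control and 6496, 5657 and 2394 in N2ICD. The probes differed by 0.92, 1.07 and 0.61, and the Neat1 gene probe, at 1009.6 and 2664, by 1.23. On the Malat1 side, chr19:5801802-5802597 reverse, which was named after its values were seen, read 31970, 5525 and 11591 in the control and 52472, 9085 and 18555 in N2ICD. Its 3 probes lay between 0.51 and 0.55. Another region on that strand, chr19:5798135-5800557 reverse, lay nearer the Malat1 gene probe, at 2363 bases. Its 3 probes were all measured and differed less, by 0.26 to 0.45, with a mean of 0.34. The array's Malat1 gene probe was not above background on the control array and gave no difference. Probes on the opposite strand over the same genes were mixed. In chr19:5771425-5848475 forward, 8 of 10 probes were measured and ranged from -0.76 to 0.84.

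Agreement between probes can be set against repeated spots. Probes printed several times, 251 in number and none of them a lincRNA probe, had an SD of 0.14 between the differences of their spots. The SD between measured lincRNA probes of the same region was 0.32, and over all members it was 0.44. Probes of the same region thus agreed less than spots of the same probe and more than members at large. Beyond 60 bases the spread grew with distance. For pairs of measured probes on the same strand, the SD of a probe was 0.23 when their starts lay under 30 bases apart (77 pairs) and 0.20 at 30 to 60 bases (50 pairs). It was 0.29 at 60 to 1000 bases (2263 pairs), 0.33 at 1000 to 10000 bases (1056 pairs), 0.41 at 10000 to 100000 bases (1438 pairs) and 0.46 beyond that, up to 1 Mb (2596 pairs). The correlation of the differences went from 0.75 and 0.87 in the nearest bands through 0.60, 0.45 and 0.21 to -0.05. Both probes of a pair share their arrays and many pairs share a probe, so these are descriptions without a test.

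**Figure D3:**
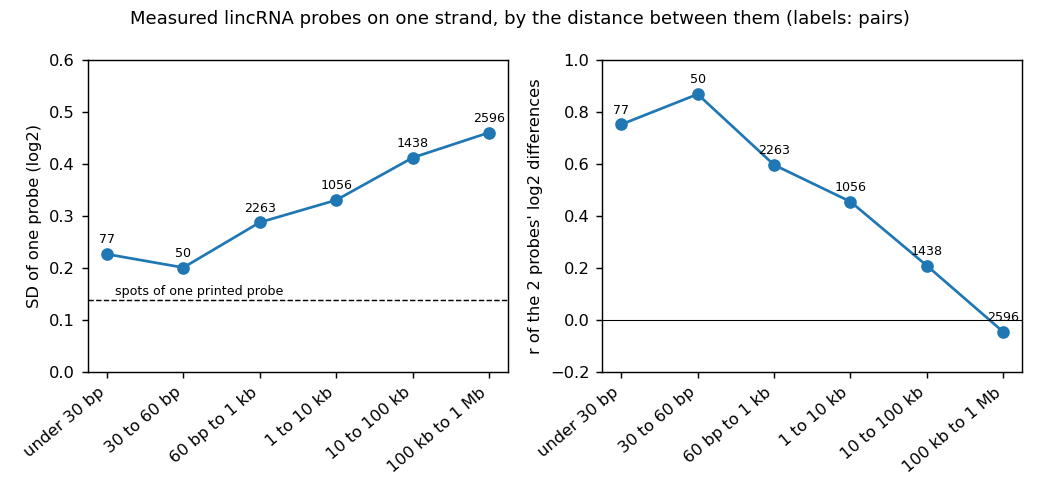
Spread of the log2 difference between pairs of measured lincRNA probes on the same strand (left, SD of a probe) and correlation of their differences (right), by the distance between the probes, with the number of pairs at each point. The dashed line is the SD of 0.14 between spots of the same printed probe, and the correlation ends at -0.05 for probes 100 kb to 1 Mb apart.

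Some members share sequence with probes for something else. On either strand, 134 members held a run of 25 bases in common with a gene probe or an unnamed probe of the array, 92 of them on the same strand. Of such probes, 98 pairs were measured on both sides, and their differences correlated at 0.83 with an SD of 0.15, close to that of repeated spots. Among them were probes that match Rps16 and Rps29, genes of ribosomal proteins, Cox5b, a subunit of cytochrome c oxidase, and Anxa11, an annexin. A probe of chr2:167085700-167117795 reverse differed by 0.13, as did Rps16. For such members the interval in the probe's name is not the only source that the letters allow.

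Opposite results within a region occurred once past 2-fold. In chr1:192484781-192485014 reverse, the first probe read 222 in the control and 105 in N2ICD, and the last read 85.7 and 209, differences of -1.25 and 1.11. The probe between them missed the detection flag on both arrays.

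Base composition moved with detection and with the difference. Of lincRNA probes with a GC content under 35%, 7.69% were measured, and the share went through 13.8%, 18.1%, 17.2%, 30.03% and 28.0% in bands of 5 percentage points to 50.3% at 60% or more. The median difference went from 0.09 to -0.20 over the same bands. For gene probes it went from 0.11 to -0.11. Of the 52 higher members, 26 had a GC content under 40%, as did 1 of the 78 lower members and 550 of all 3154 members. When the median difference of gene probes in the same band was subtracted from each member, the counts became 49 higher and 68 lower. The part of base composition in single differences was not tested.

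**Figure D4:**
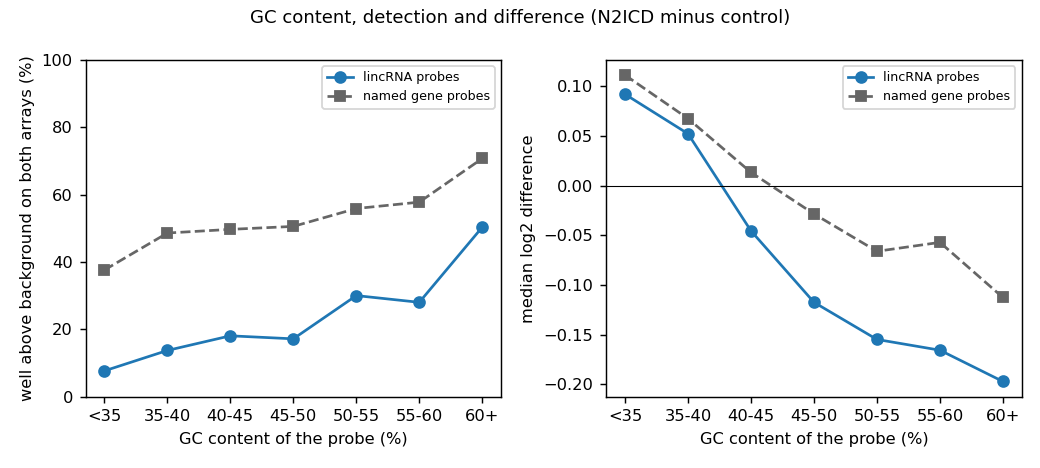
Percentage of probes well above background on both arrays (left) and median log2 difference, N2ICD minus control (right), by the GC content of the probe, for lincRNA probes (circles) and named gene probes (squares). Detection of lincRNA probes goes from 7.69% to 50.3%, and their median difference from 0.09 to -0.20.

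Detection was also higher with more CG pairs. CG pairs count towards the GC content, and these trends were not separated. Of 8375 lincRNA probes with no CG pair, 17.4% were measured, and of 554 probes with 4 or more, 42.8% were. The lowest difference of all, in chr6:145647711-145756861 forward, came from a probe with 9 CG pairs and a GC content of 78.3%. The probe of chr7:16584852-16657252 forward, with 8 CG pairs, was at 901 in the control and 331 in N2ICD, a difference of -1.62. The letters AATAAA, the common signal for polyadenylation, searched on the printed strand only, occurred in 130 members (4.12%), in 3.87% of lincRNA probes that were not measured and in 15.7% of measured gene probes. Among the 52 higher members 7 held it, and among the 78 lower members 1 did.

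The strands of an interval were often measured apart. Of 1067 regions present with probes on both strands, 265 had a measured probe on each, 220 on the forward strand alone, 244 on the reverse strand alone and 338 on neither. Where both strands were measured, the mean differences of the strands correlated at 0.09 over 265 regions, where single probes of the same strand gave 0.45 at 1000 to 10000 bases apart and 0.21 at 10000 to 100000. In 14 regions the strands differed by over 1. The widest case was chr15:79709500-79714700, where 1 forward probe read 35.8 and 58.1 and 1 reverse probe 208 and 70.4, differences of 0.53 and -1.73. With the dim probes of each strand averaged in, the values were -0.35 and -0.43, so the forward direction turned and the reverse value fell short of 2-fold. In chr15:61984389-62102500, which spans the lncRNA gene Pvt1 on the forward strand, 2 forward probes averaged -0.22 and a lone measured reverse probe differed by -1.88, from 701 to 215. The reverse value was -1.58 with normexp and -0.49, short of 2-fold, when the dim probes of the region were averaged in. The reverse-strand gene probe inside this interval, listed as H2afy3, read 86.6 and 83.2, a difference of -0.23. The only measured Pvt1 gene probe, on the forward strand, read 117 and 86.6, a difference of -0.60. A pair with many probes was closer. In chr11:95627874-95640824, over Zfp652, 7 forward probes averaged 0.14 and 7 reverse probes -0.03.

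Probes that face each other on opposite strands share complementary bases. Of 1842 such pairs, both probes were measured in 84, a single probe in 566 and neither in 1192. A probe was measured in 22.9% of cases when its facing probe was, and in 19.9% of all cases, each probe counted once per pair. Over the 84 pairs the differences correlated at 0.17. Pairs with both sides measured had a median GC content of 53.3%, the others 45%. In the pair from chr12:73838608-73862621 the forward probe read 146 and 145 and the reverse probe 118408 and 116885, so both were nearly the same on the arrays, at -0.19. In the pair from chrX:18744367-18853992 the forward probe read 73116 and 56445, a difference of -0.55, and the reverse probe 89.5 and 119, a difference of 0.23.

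The nearest named gene probe lay inside the region for 389 of the 1794 regions, within 10 kb for 481, at 10 to 50 kb for 568 and beyond for 356, with a median gap of 11023 bases. Of the 389, 249 were on the region's own strand, and RefSeq lists the nearest gene of 114 of these as protein-coding and of 118 as lncRNA. Where the gene was measured and on the same strand, the correlation between the differences of region and gene was higher for near genes than for far ones. It was 0.54 over 161 regions with the gene probe inside, 0.37 over 205 regions at up to 10 kb, 0.14 over 201 at 10 to 50 kb and 0.11 over 121 beyond. Regions downstream of the gene probe at up to 10 kb gave 0.43 (170 regions) and regions upstream -0.02 (35 regions). With the gene on the opposite strand the correlations were 0.18 (71 regions), 0.13 (143), 0.08 (166) and 0.02 (73). Region and gene share the arrays, and overlapping regions share probes and genes, so the number of independent points is smaller than the number of regions. Some regions with the gene probe inside, such as those of Mrln and the forward one over Zfp652, also hold a probe that shares sequence with that gene probe. For these, region and gene are in part the same sequence measured again. How much of the 0.54 comes from such probes was not tested.

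**Figure D5:**
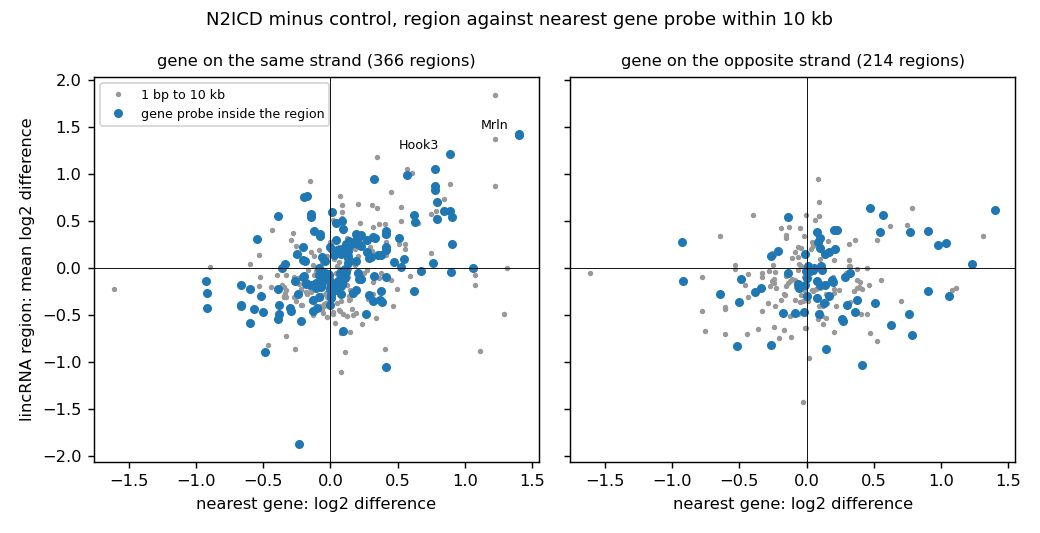
Mean log2 difference of each lincRNA region (y axis) against that of its nearest named gene (x axis) where the gene probe lies within 10 kb, for genes on the same strand (left, 366 regions) and on the opposite strand (right, 214 regions). Large points have the gene probe inside the region, and Mrln and Hook3 are labelled at the upper right of the left panel.

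Gene lists for muscle and Notch signalling reached few regions. Within 50 kb of 33 sarcomere and fibre type genes lay 12 measured regions near 5 genes, none with a mean past 2-fold, and their median difference was -0.10. The largest was chr1:137679100-137689925 reverse near Tnni1, the slow troponin I gene, where 1 probe read 64.6 and 38.6, a difference of -0.91, while Tnni1 on the opposite strand differed by 0.65. Near 18 Notch pathway genes lay 5 regions with a median of 0.06. The Notch regions lie near Maml2 and Maml3, coactivators of the Notch complex, the receptor gene Notch3 and Rbpj, the DNA-binding partner of N2ICD. The only measured Maml2 probe lies outside the regions and read 48.6 and 28.8, near the detection limit, a difference of -0.93. The Maml2 probe inside the regions was not above background on either array. The regions over Maml2 differed by -0.14 on its strand and 0.27 on the other, with 1 probe each. Near 14 immediate early and stress genes lay 7 regions with a median of -0.17. In chr11:117835849-117842574 reverse, upstream of Socs3, a feedback inhibitor of cytokine signalling, 1 probe read 517 and 316, a difference of -0.88, while Socs3 differed by 1.11. No measured region lay within 50 kb of the 14 genes of metabolism or the 12 circadian genes. The share of all array genes with a measured region within 50 kb was not computed. Whether these lists reached fewer regions than other genes was thus not tested. Of 22 known lncRNA genes, 19 had a probe on the array, and 35 regions with a median of -0.12 lay near 13 of these genes. Of the 35 regions, 13 were above 0 and none had a mean at least 2-fold higher. Only 1, the reverse-strand region over Pvt1, was at least 2-fold lower. Over all 1794 regions the median was -0.14, 588 (32.8%) were above 0, 0.836% had a mean at least 2-fold higher and 2.12% a mean at least 2-fold lower. Counts of 0 or 1 in these lists are near those shares. In chr17:12990484-13018375 forward, over Airn, the imprinted antisense RNA of Igf2r, its 1 probe read 44.9 and 97.1, a difference of 0.94. The 2 measured Airn gene probes differed by 0.29 and 0.36. Other forward regions over or near Airn had means below 0. They were chr17:13008796-13023201 at -0.08, chr17:13020750-13033750 at -0.12 and chr17:12965849-12968519 at -0.22.

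Some of the widest downward values came from probes that stood alone in their region. After the reverse probe over Pvt1 came that of chr15:79709500-79714700 reverse, then chr15:102932714-102935033 forward, from 367 to 128 with a difference of -1.69. The remaining 3 of the lowest 6 were chr12:76759861-76760240 reverse at -1.48, chr19:4996544-4997119 reverse at -1.46 and chr5:26374425-26393675 forward at -1.45. Among the higher ones, chr17:17342991-17343357 forward read 33.8 and 108, a difference of 1.51, chr12:85252300-85253597 reverse differed by 1.15 and chr4:59264275-59287850 reverse by 1.01. Upward values of 0.98 and 0.94, in chr1:163508244-163586072 reverse and chr19:36699712-36763966 reverse, did not reach 2-fold. Each rests on 1 spot per array. With normexp the values of chr17:17342991-17343357, chr12:85252300-85253597 and chr4:59264275-59287850 were 0.66, 0.64 and 0.27, and those of chr12:76759861-76760240, chr19:4996544-4997119 and chr5:26374425-26393675 were -0.75, -0.71 and -0.70, all short of 2-fold. The value of chr15:102932714-102935033 stayed past 2-fold, at -1.25.

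Probes seen on a single array lie outside the members. There were 367 on the control array alone and 337 on the N2ICD array alone, and 12320 probes were on neither. For these only a bound can be given, the scaled signal of the bright array against that of the dim array, where the dim value was raised to the lowest signal well above background if it lay under it. The bound was at least 2-fold for 44 probes of the control array and for 25 of the N2ICD array. The largest was the printed probe of chr14:73729977-73751877 reverse, at least 79.8-fold lower on the N2ICD array, although 2 other probes of that region were measured and the one next to it read 241 and 138, a difference of -0.98, and the second differed by 0.11. The probe on the other side of the printed one was not above background on either array, at 5.30 and 5.58. A probe of chr2:150080526-150082950 reverse was at least 24.4-fold lower and a probe of chr11:53574182-53574644 reverse at least 11.7-fold lower.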

How the data were processed

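Total RNA of tibialis anterior muscle was measured on 1-colour arrays (Cy3), 1 for the control and 1 for N2ICD. Groups come from the sample titles. Per the file headers, the deposited spot intensity was made with Agilent Feature Extraction 10.10.1.1 and probe positions are on mm9. Its processed form has the background subtracted and a spatial trend removed within the array, with no scaling across arrays. The authors' deposited table holds a fold (ratio) and a normalized log2 value per array. It served only as an alternative, and its making is not given in the sources read.

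Processed signals were turned into log2 minus the 75th percentile of the 59305 non-control spots of each array (signals of 169 and 190). Control spots and outlier flags were left out, among them 3 lincRNA spots. Gene names came from RefSeq tables. Named regions are those with the largest, brightest, most opposed or most probed values by a written rule. Members and lists were chosen with earlier results of these data known. Values were computed with Python 3.11.15, pandas 2.3.3 and limma 3.58.1 and the code was tested on simulated data. With 1 array per group the number of arrays limits the precision. The values of 1 gene list and of a region pair are not reported here.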

Additional observations from a re-analysis of the deposited data

Results flagged for a closer look

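Signals that appeared on the N2ICD array above the background level of the control array, in probes that the comparisons leave out, were listed for a closer look. The largest was a probe of chr5:104936417-104984892 reverse, in an interval with Thoc2l on the opposite strand, at 23.1 in the control and 207 in N2ICD, at least 7.21-fold higher. A probe of chrX:155945151-155945654 reverse was at least 6.00-fold higher, and a probe of chr1:53215418-53244461 reverse, over 1700019A02Rik, at least 4.26-fold higher. In each region no probe was measured on both arrays (0 of 5, 0 of 3 and 0 of 2), so each bound rests on 1 spot per array. Outliers within a group could not be looked for with 1 array per group.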

How the results depend on the processing

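No paired analysis was possible because each group has 1 array, and no array could be left out. The median difference and the within-region SD stayed within the spot SD of their values under all settings but those named here. The counts of members higher, members lower and regions past 2-fold with all probes were 24, 19 and 4 with normexp background correction, and 261, 8 and 31 on the spike-in scale, where the median difference was 0.43. They were 166, 240 and 15 with probes well above background on at least 1 array, where the within-region SD was 0.52, and 719, 982 and 15 with no filter on dim probes, where 16178 probes counted, 1067 regions had both strands and the SD was 0.56. With signals of 50 or more, 48 members were lower. At 1.5-fold the counts were 181, 349 and 37, and at 4-fold 0, 1 and 0. Merging overlapping regions, chosen after seeing the data, gave 28 loci higher. Of 20 named regions past 2-fold none changed sign, and 3 stayed past 2-fold under every setting, both Mrln regions and chr15:102932714-102935033 forward. Many members lie near the detection limit, where 1 spot decides.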

Other observations

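A few bright probes were far higher on the N2ICD array while the other measured probes of their region were not. They were picked after their values were seen. A probe of chr5:34696192-34722842 reverse, on the strand opposite to Rnf4 and just past it, differed by 1.69 from a control signal of 3744. A probe of chr16:8738782-8830148 reverse differed by 1.58 from 10541, and a probe of chr4:131905739-131910814 forward, opposite to Snhg3, by 1.55 from 7568. In this order, the GC content of the probes was 76.7%, 81.7% and 55%. The Snhg3 gene probe, on the other strand, read 325 in the control and 625 in N2ICD, a difference of 0.77. Of 342 runs joined from overlapping or abutting member probes, 19 held an ATG-to-stop frame of 30 codons or more. The longest, at chr1:162939309-162939461 reverse, has 50 codons before its stop, and the Mrln frame of 46 codons came next. Frames of this length also occur in sequence that is not translated, and whether any of the others is was not tested.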
